A study of Mus musculus with 2 samples.

Results

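Metalloproteinases, their relatives and their inhibitors were compared between the tumour of a degrader arm and a control tumour. The members were the 81 genes with a symbol of the Mmp, Timp, Adam or Adamts families, or Adamdec1, among 34259 genes on the count scale, with the collagenase Mmp8 left out by the rule. They comprised 23 Mmp symbols, 4 Timp, 35 Adam (Adamdec1 among them) and 19 Adamts genes. Both tumours were grown from 4T1, a mouse mammary carcinoma line that metastasises and draws in many myeloid cells. The treated tumour had been collected after 3 injections of a compound described as degrading a protein related to autophagy, whose target the labels do not name. The control tumour is labelled as control, with no vehicle or injection given. No label gives the age, sex or strain of the mice. Both were sequenced as bulk RNA, with 1 library each.

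The treated library held 3824323 counts and the control library 2252214. The labels put the treated tumour in batch 1 and the other in batch 2, and the effects of batch and treatment cannot be told apart. With 1 library per group no test between conditions was possible, so each value describes these libraries and has no replicate check. Counts are given beside CPM, counts per 1000000 of the scaled library total. 1 count equalled 0.259 CPM in the treated library, against 0.449 CPM in the control library. Intervals in parentheses are 95% intervals for the error of counting alone and take no account of how tumours vary. In bulk RNA, fewer cells of a type and less RNA per cell cannot be told apart. The carcinoma keratins Krt8 (7729 counts in the treated library, against 4116 in the control library) and Krt18 (5479 and 2803 counts) were abundant in both.

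Matrix metalloproteinases (MMPs) are zinc endopeptidases that cut collagens, other matrix proteins and many secreted factors, and tissue inhibitors of metalloproteinases (TIMPs) block them. ADAMs are mostly membrane-anchored relatives that shed the outer parts of receptors, cytokines and growth factors, whereas ADAMTS enzymes are secreted and trim proteoglycans and procollagens. In tumours, neutrophils, macrophages, fibroblasts, vessel cells and the carcinoma cells themselves can all make such enzymes. Transcript levels do not show how much enzyme was activated or inhibited.

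Members were mostly lower in the treated tumour. Of the 81, 19 had no count in either library, 36 had counts but a mean under 10 CPM, and 26 reached that minimum. In the treated library, 7 of the 26 were lower by 2-fold or more (26.9%), compared with 2.5% of all 8865 genes past the minimum. Another 2 were higher by 2-fold or more (7.69%), compared with 4.23% of all genes. These calls used the log2 ratio of the CPM with 1 CPM added on either side, so differences of low genes come out smaller than they are. The log2 ratio was below 0 in 20 of the 26 (76.9%), compared with 47.5% of all genes. Its median was -0.49 over the 26 members and 0.03 over all 8865 genes. The counting interval of the ratio lay wholly below 1 in 15 of the 26, against 18.9% of all genes, and wholly above 1 in 2, against 22% of all genes. Adamdec1, Adam19 and Adamts9 passed the minimum only through the control library, which favours low ratios, so these counts describe the members and support no claim about the family.

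**Figure D1:**
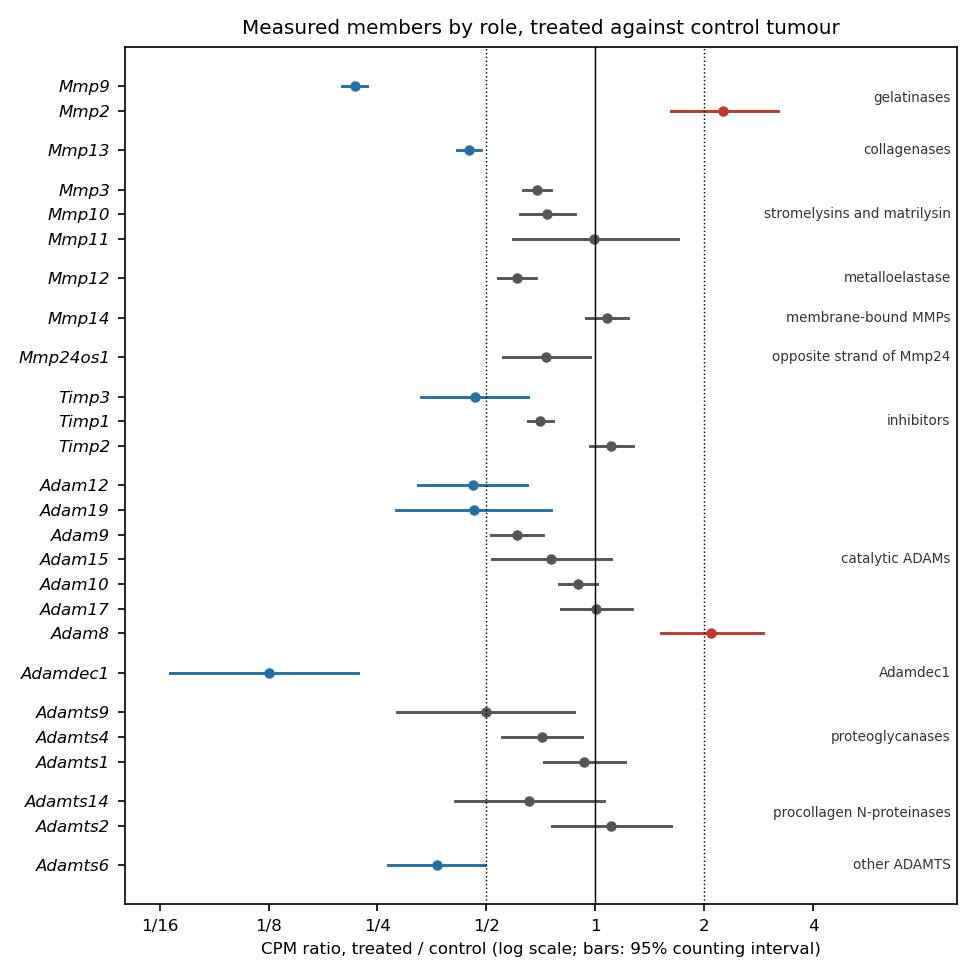
CPM ratio of the treated over the control library for the 26 members that averaged 10 CPM or more, grouped by role, on a log axis. Points are ratios and bars are 95% counting intervals, with blue for at least 2-fold lower, red for at least 2-fold higher and grey for the rest. Mmp9 and Adamdec1 lie farthest to the left, and Mmp2 and Adam8 are the red points.

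A cluster of Mmp genes on chromosome 9 was lower throughout its expressed part. In mm10 it spans 7272514 to 7699585 and holds 9 members, in the order Mmp13, Mmp12, Mmp1b, Mmp3, Mmp1a, Mmp10, Mmp27, Mmp20 and Mmp7. Promoters of the 5 with at least 20 counts are printed because these genes were lower together. Promoters of this family are known for sites of AP-1, the dimer of Fos and Jun proteins. Each stretch runs 5′ to 3′ from 100 bases before to 20 bases into the gene's start, is taken from RefSeq on GRCm38.p6 (mm10), plus strand, and has the AP-1 motif TGANTCA in capitals. The motif reads the same on both strands.
Mmp13 (chr9:7272414-7272533): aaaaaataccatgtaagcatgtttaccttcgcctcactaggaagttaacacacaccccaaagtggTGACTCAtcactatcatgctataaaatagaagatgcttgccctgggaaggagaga
Mmp12 (chr9:7347274-7347393): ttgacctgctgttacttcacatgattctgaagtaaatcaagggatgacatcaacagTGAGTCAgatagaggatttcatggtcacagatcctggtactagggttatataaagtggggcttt
Mmp3 (chr9:7445722-7445841): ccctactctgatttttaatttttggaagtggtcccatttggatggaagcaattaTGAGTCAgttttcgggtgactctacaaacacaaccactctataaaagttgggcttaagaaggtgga
Mmp1a (chr9:7464041-7464160): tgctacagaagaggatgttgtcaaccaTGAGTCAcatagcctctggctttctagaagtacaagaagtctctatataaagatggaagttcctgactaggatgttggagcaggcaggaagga
Mmp10 (chr9:7502242-7502361): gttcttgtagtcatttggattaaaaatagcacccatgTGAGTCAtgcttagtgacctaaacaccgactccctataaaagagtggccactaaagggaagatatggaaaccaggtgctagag

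In these promoters the motif began 35 bases before the start in Mmp13, 44 in Mmp12 (the downstream of its starts), 46 in Mmp3, 63 in Mmp10 and 73 in Mmp1a. All of these are TGAGTCA except that of Mmp13, which is TGACTCA. Windows of 300 bases (250 before to 50 after a start) were listed for 49 of the 81 members. None was listed for Mmp9, Mmp2, Adamdec1 or Adam3. The motif was in a window of 8 of the 9 cluster genes, the exception being Mmp27, and of 5 of the other 40 members. In Mmp20, Adam25 and Adam20 the match was TGAATCA, and in the others it was TGAGTCA or TGACTCA. All of these counts allow any middle base. Outside the cluster, Adam19 was the only member past 2-fold found with the motif, and not all of these members had a window. The window of Timp1, 1.42-fold lower, did not hold the motif. Of all 27025 genes with a window, 8.97% held it in at least 1. A match describes the letters and is not evidence of binding.

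Mmp13, an interstitial collagenase that bone and cartilage cells also use, had 1193 counts (309 CPM) in the treated library, against 1534 counts (688 CPM) in the control library. It was 2.23-fold lower (2.07 to 2.41) and was the only measured member of the cluster past 2-fold. Mmp12, the metalloelastase of macrophages (chromosome 9, 7344381 to 7369499, plus strand), had 547 counts (142 CPM) in the treated library, against 519 counts (233 CPM) in the control library. It was 1.65-fold lower (1.46 to 1.86). It shares 157 exon bases with Mmp1b on the opposite strand, and Mmp1b had 2 counts in the treated library, against 5 in the control library. How reads in shared bases were counted is not stated.

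The stromelysins of the cluster, which cut a wide range of matrix proteins and can activate other MMPs, differed less. Mmp3 had 1091 counts (282 CPM) in the treated library, against 909 counts (408 CPM) in the control library, and was 1.44-fold lower (1.32 to 1.58). Mmp10, made mainly by epithelial cells at wound edges, had 296 counts (76.6 CPM) against 232 counts (104 CPM) and was 1.36-fold lower (1.14 to 1.62). The collagenase gene Mmp1a had 19 counts (4.92 CPM) in the treated library, against 26 counts (11.7 CPM) in the control library, a 2.37-fold lower value (1.26 to 4.54) below the minimum of 10 CPM. The annotation used lists Mmp1a as a polymorphic pseudogene. Its near copy Mmp1b can share its reads, so how counts were split between them is uncertain. Mmp27 had 0 and 1 count, and Mmp20 and Mmp7 had none in either library, where 3 counts, a one-sided limit for a count of 0, equal 0.776 CPM in the treated library, against 1.35 CPM in the control library. The 5 genes with at least 20 counts thus all had an interval below 1.

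**Figure D2:**
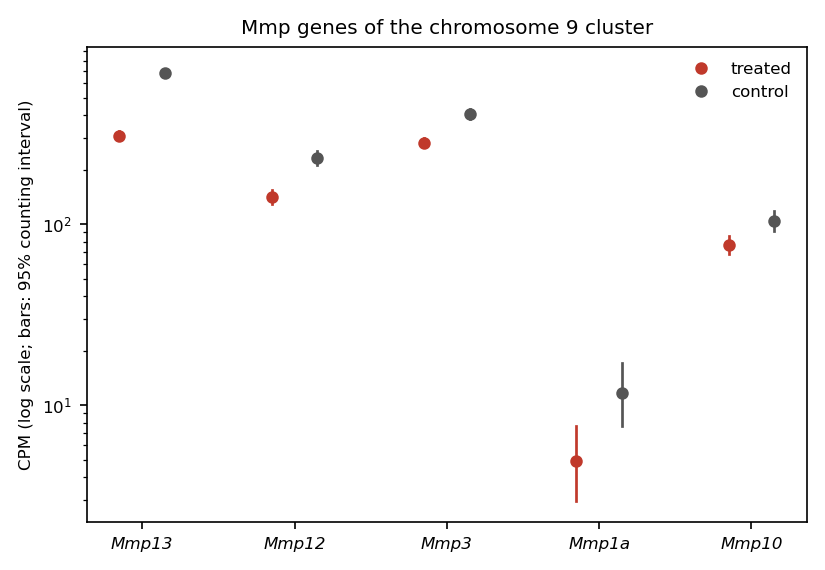
CPM on a log axis for the 5 Mmp genes of the chromosome 9 cluster with at least 20 counts, in their order along the chromosome. Red points are the treated and grey points the control library, and bars are 95% counting intervals. Every red point lies below its grey point, with the widest gaps in Mmp13 and Mmp1a.

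The gelatinases, which degrade denatured collagen and basement membrane collagen, went in opposite directions. Mmp9, stored in neutrophil granules and also made by macrophages, osteoclasts and carcinoma cells (ENSMUSG00000017737, chromosome 2, 164940780 to 164955850, plus strand), had 859 counts (222 CPM) in the treated library, against 2290 counts (1028 CPM) in the control library. It was 4.62-fold lower (4.27 to 5.01). Mmp2, the gelatinase of fibroblasts (ENSMUSG00000031740, chromosome 8, 92827291 to 92853420, plus strand), had 180 counts (46.6 CPM) in the treated library, against 46 counts (20.6 CPM) in the control library. It was 2.26-fold higher (1.62 to 3.19). Mmp9 thus had 4.77 counts per count of Mmp2 in the treated library (4.06 to 5.64) and 49.8 in the control library (37.2 to 68.2). This ratio uses no scaling between the libraries and is not corrected for transcript length.

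Among the other MMPs, Mmp14, a membrane-anchored collagenase that activates pro-MMP2 in a complex with TIMP2, was close between the libraries. It had 644 counts (167 CPM) in the treated library, against 345 counts (155 CPM) in the control library, a ratio of 1.08 (0.943 to 1.23). Mmp11 (stromelysin 3, known from stromal cells around carcinomas) had 43 against 25 counts, a ratio of 0.992 (0.592 to 1.69), and shares 155 exon bases with Chchd10 on the opposite strand. Mmp19 had 31 against 9 counts, a ratio of 1.99 (0.923 to 4.74), below the minimum, and shares 789 exon bases with Tmem198b. Mmp23 had 24 against 15 counts, a ratio of 0.923 (0.465 to 1.89). Mmp25, a membrane-anchored MMP of neutrophils, had 10 counts in the treated library, against 3 in the control library, a ratio of 1.92 (0.495 to 10.9). Of these genes only Mmp11 and Mmp14 reached the minimum, and in all of them the interval took in 1. Mmp24 had no count, and the gene on its opposite strand, Mmp24os1, which is not a protease of this family but matched the naming rule, had 123 against 97 counts, a ratio of 0.731 (0.556 to 0.964). Without Mmp24os1 the median log2 ratio of the remaining 25 measured members was -0.50.

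All MMP genes together held 4960 counts in the treated library, against 5972 in the control library, a summed level 2.09-fold lower (2.01 to 2.17). Without Mmp9 the sum was 4101 counts against 3682, 1.56-fold lower (1.49 to 1.63). Mmp9 took 17.3% of the MMP counts in the treated library (16.3% to 18.4%) and 38.3% in the control library (37.1% to 39.6%). Mmp14 took 13.0% (12.1% to 14.0%) in the treated library, against 5.78% (5.20% to 6.40%) in the control library, and Mmp2 3.63% (3.13% to 4.19%) against 0.770% (0.564% to 1.03%). Mmp3 took 22% (20.8% to 23.2%) against 15.2% (14.3% to 16.2%), while the share of Mmp13, 24.1% (22.9% to 25.3%) against 25.7% (24.6% to 26.8%), had overlapping intervals. Shares of one whole move together, so a lower share of Mmp9 raises the others.

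**Figure D3:**
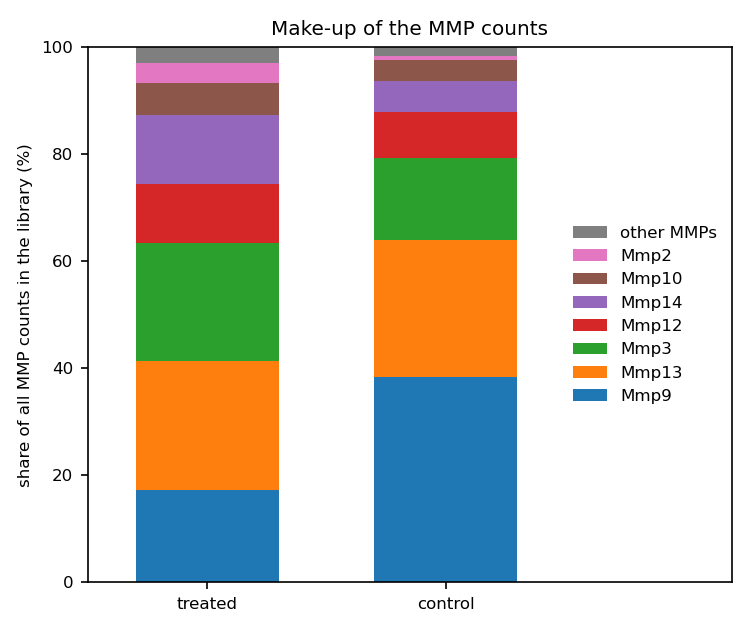
Stacked bars of the share of all MMP counts taken by 7 genes and by the other MMPs, in percent, with the treated library on the left and the control library on the right. Mmp9 fills 17.3% of the treated and 38.3% of the control bar, and Mmp14 and Mmp2 fill more of the treated bar.

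The inhibitors differed by member. Timp1, a secreted inhibitor that also binds pro-MMP9 and is induced by inflammation (chromosome X, 20870166 to 20874735, plus strand), had 1315 counts (340 CPM) in the treated library, against 1076 counts (483 CPM) in the control library, 1.42-fold lower (1.31 to 1.54). Timp2, which binds MMP14 and helps to activate MMP2, had 617 counts (159.6 CPM) against 321 counts (144 CPM), a ratio of 1.11 (0.967 to 1.27). Timp3, which is held in the matrix and also inhibits ADAM17 and aggrecanases, had 66 counts (17.1 CPM) against 82 counts (36.8 CPM), 2.15-fold lower (1.54 to 3.03). Timp4 had 0 counts in the treated library, against 1 in the control library. Of the 3 measured inhibitors, Timp3 was past 2-fold and Timp2 had an interval that took in 1.

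Timp1 kept a similar proportion to Mmp3, and there were 1.21 counts of Timp1 per count of Mmp3 in the treated library (1.11 to 1.31) and 1.18 in the control library (1.08 to 1.29). Per count of Mmp9 there were 1.53 counts of Timp1 in the treated library (1.4 to 1.67) and 0.470 in the control library (0.437 to 0.505), 3.26 times as many. Summed over the families, TIMP genes had 0.403 counts per MMP count in the treated library (0.382 to 0.424) and 0.248 in the control library (0.234 to 0.262). For the trio that activates MMP2, Timp2 had 0.958 counts per count of Mmp14 in the treated library (0.857 to 1.07) and 0.930 in the control library (0.797 to 1.09). Mmp2 had 0.280 counts per count of Mmp14 in the treated library (0.236 to 0.330) and 0.133 in the control library (0.0958 to 0.182). The Timp2 to Mmp14 ratio therefore overlapped between the libraries, while that of Mmp2 to Mmp14 did not.

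Among the ADAMs with a working protease domain, the main sheddases differed little. Adam10, the sheddase of Notch receptors and cadherins, had 705 counts (182 CPM) in the treated library, against 454 counts (204 CPM) in the control library, a ratio of 0.895 (0.795 to 1.01). Adam17, which releases TNF and several EGF receptor ligands, had 220 counts (56.9 CPM) against 126 counts (56.5 CPM), a ratio of 1.01 (0.805 to 1.26). It shares 311 exon bases with Iah1 on the opposite strand. Adam15 had 68 against 52 counts, a ratio of 0.754 (0.518 to 1.10). Adam9, a broadly expressed sheddase, had 307 counts (79.4 CPM) against 291 counts (130.6 CPM) and was 1.64-fold lower (1.4 to 1.94). For Adam10, Adam15 and Adam17 the interval thus took in 1, and for Adam9 it did not.

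Adam8, an ADAM of neutrophils, macrophages and other leukocytes (ENSMUSG00000025473, chromosome 7, 139978932 to 139992562, minus strand), was the one measured ADAM past 2-fold on the higher side. It had 181 counts (46.8 CPM) in the treated library, against 50 counts (22.4 CPM) in the control library, and was 2.09-fold higher (1.52 to 2.92). Adam12, made by stromal and some carcinoma cells, had 62 counts (16 CPM) against 78 counts (35.0 CPM) and was 2.18-fold lower (1.54 to 3.10). Adam19, its close relative, had 32 counts (8.28 CPM) against 40 counts (17.9 CPM) and was 2.17-fold lower (1.33 to 3.57). Adam33, another relative of mesenchymal cells, had 23 against 5 counts, a ratio of 2.65 (0.986 to 8.93), below the minimum. Adam8 and Adam19 lay just inside the 2-fold threshold, with log2 ratios of 1.03 and -1.03.

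Adamdec1, a decysin-like ADAM without the C-terminal domains of its family, is known from macrophages and, in the gut, from fibroblasts (ENSMUSG00000022057, chromosome 14, 68563380 to 68582095, minus strand). It had 15 counts (3.88 CPM) in the treated library, against 69 counts (31 CPM) in the control library. At 7.98-fold lower (4.52 to 15) it had the lowest ratio of the 26 measured members.

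Adam3, a sperm protein needed for binding the egg, had 49 counts (12.7 CPM) in the treated library, against 1 count (0.449 CPM) in the control library, a ratio of 28.3 (4.84 to 1138). Its mean lay under 10 CPM, so it is not among the 26. Of its neighbours on chromosome 8, Adam5 had 1 count in each library and Adam18 and Adam32 had none. In all, 10 of the 14 ADAM genes of that chromosome had no count. Adam2, the sperm partner of Adam3, had 4 counts in the treated library, against 0 in the control library. The brain ADAMs that lack protease activity, Adam11, Adam22 and Adam23, had 10 counts together in the treated library and 7 in the control library.

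Measured ADAMTS genes were lower or close between the libraries. Adamts6, which acts on matrix and cell-surface proteoglycans, had 71 counts (18.4 CPM) in the treated library, against 112 counts (50.3 CPM) in the control library, and was 2.74-fold lower (2.01 to 3.74). Among the proteoglycanases, which cut versican and aggrecan, Adamts9 had 26 counts (6.73 CPM) against 30 counts (13.5 CPM). At 2.00-fold lower (1.14 to 3.52) it lay just outside the threshold after the added CPM, with a log2 ratio of -0.90. Adamts4 had 142 counts (36.7 CPM) against 115 counts (51.6 CPM) and was 1.4-fold lower (1.09 to 1.81), a value that is uncertain because how reads were assigned between genes is not stated. Adamts1, induced by inflammation and in ovulation, had 163 counts (42.2 CPM) against 101 counts (45.3 CPM), a ratio of 0.931 (0.722 to 1.2). Adamts5, the main aggrecanase of mouse cartilage and the neighbour of Adamts1, had 27 against 15 counts, a ratio of 1.04 (0.533 to 2.10).

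Of the procollagen N-proteinases, which remove the N-propeptides of fibrillar collagens, Adamts2 had 86 counts (22.3 CPM) in the treated library, against 45 counts (20.2 CPM) in the control library, a ratio of 1.10 (0.760 to 1.62). Adamts14 had 41 against 36 counts, a ratio of 0.657 (0.409 to 1.06), and Adamts3 26 against 29 counts, a ratio of 0.517 (0.292 to 0.909), below the minimum. Adamts13, the protease of von Willebrand factor, had 18 against 6 counts, a ratio of 1.73 (0.658 to 5.32). Adamts10, Adamts12 and Adamts15 had ratios of 1.2 (0.597 to 2.53), 0.757 (0.376 to 1.55) and 0.839 (0.366 to 1.999). Below the minimum, 11 members had at least 20 counts in all, and only Mmp1a and Adamts3 (lower) and Adam3 (higher) had an interval that left out 1. The 25 members with 1 to 19 counts had at most 10 in the treated library, against 7 in the control library.

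Members were then set beside markers of the cells that could make them. The sources are background knowledge, several genes have more than one, and 4T1 cells themselves can make many of them. Of the members assigned to neutrophils, Adam8 was 2.09-fold higher and Mmp9 4.62-fold lower, with Mmp25 under the minimum. The median log2 ratio of Adam8 and Mmp9 was -0.59, and with a minimum of 1 CPM, which lets in Mmp25, it was 0.61. Of 19 neutrophil markers, 11 reached the minimum and 8 of these were at least 2-fold higher, with none lower. Cxcr2, Csf3r, Hdc and Trem1, all among the 8, had 2.69, 6.73, 5.38 and 9.42 CPM in the control library. Genes this low in the control library enter the list if their treated value is larger, so their calls partly follow from the selection. The summed level of the list was 2692 CPM in the treated library, against 1111 CPM in the control library. The calprotectin subunit S100a9 had 5290 counts in the treated library, against 927 in the control library, and S100a8 had 3710 against 866. The chemokine receptor Cxcr2 had 67 against 6 counts, and the receptor of granulocyte colony-stimulating factor Csf3r 58 against 15. Ly6g had 4 and 1 counts, the granule gene Mpo had 1 count in each, and Elane had none. Lcn2, whose product binds MMP9 in neutrophils, had 369 against 339 counts, a ratio of 0.628 (0.540 to 0.730). Mmp9 was thus lower while 9 of the 11 measured neutrophil markers had a log2 ratio above 0. The median log2 ratio of the measured neutrophil markers was 1.3. It was 0.73 with no minimum and 0.68 with a minimum of 50 CPM. Its count per count of S100a8 was 0.232 (0.215 to 0.249) in the treated library, against 2.64 (2.44 to 2.86) in the control library. Per count of Lcn2 it was 2.33 (2.06 to 2.64) in the treated library, against 6.76 (6.02 to 7.59) in the control library. Activated keratinocytes also make S100a8 and S100a9, and the summed keratinocyte markers were 3172 CPM in the treated library, against 288.5 CPM in the control library.

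Among the 6 measured members assigned to macrophages (Mmp12, Mmp14, Adam8, Adam9, Adamdec1 and Mmp9), the median log2 ratio was -0.71, with 2 at least 2-fold lower and 1 at least 2-fold higher. The macrophage markers had a median of 0.38, with 18 of 19 measured, 5 at least 2-fold higher and none lower. Their summed level was 2540 CPM in the treated library, against 2238 CPM in the control library. Cd163 and Cd68, both among the 5, had 3.14 and 9.87 CPM in the control library. They reached the minimum of 10 CPM because their treated values were larger, so these calls partly follow from the selection. The scavenger receptors Mrc1 and Cd163 had 830 against 160 and 120 against 7 counts, while the abundant lysozyme gene Lyz2 was lower, with 1554 against 1418 counts and a ratio of 0.632 (0.588 to 0.680). Adgre1 (F4/80) had 85 against 66 counts, a ratio of 0.743 (0.532 to 1.04). Of the 6 members, Mmp12, Adam9, Adamdec1 and Mmp9 thus had log2 ratios below 0, and Mmp14 (0.105) and Adam8 (1.03) above 0. The median macrophage marker was above 0, and every marker on the list had counts in both libraries. Adamdec1 passed the minimum only through the control library, which favours low ratios. Mmp19, also assigned to macrophages, was under the minimum, with a ratio of 1.99 (0.923 to 4.74).

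The 15 measured members assigned to stromal cells had a median log2 ratio of -0.50, with 4 at least 2-fold lower (Mmp13, Adam12, Timp3 and Adam19) and 1 higher (Mmp2). Fibroblast markers had a median of -0.24 over 12 of 17, with Dcn and Col6a1 at least 2-fold higher and Lox at least 2-fold lower, and a summed level of 4043 CPM against 5119 CPM. Dcn, the proteoglycan decorin, had 486 counts in the treated library, against 116 in the control library, 2.42-fold higher (1.97 to 2.98), whereas 9 of the 12 measured fibroblast markers had a log2 ratio below 0. Pericyte and smooth muscle markers had a median of -0.91 over 5 of 10 and a summed level of 167 CPM against 386 CPM. Endothelial markers had a median of -1.02 over 9 of 11, with 5 at least 2-fold lower, and a summed level of 207 CPM against 393 CPM. Cldn5, Esam and Kdr passed the minimum only through the control library, which favours low ratios. Stromal members thus lay between fibroblast markers and those of vessels in their median, a description that rests on unequal numbers of genes. Bone and cartilage markers, of interest beside Mmp13 and Mmp9, had a median of -0.49 over 5 of 12 and a summed level of 162 CPM against 338 CPM, most of the difference being Ibsp, with 21 against 263 counts. The osteoclast genes Acp5 and Ctsk had 253 against 224 and 143 against 98 counts, ratios of 0.651 (0.542 to 0.783) and 0.841 (0.646 to 1.10).

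**Figure D4:**
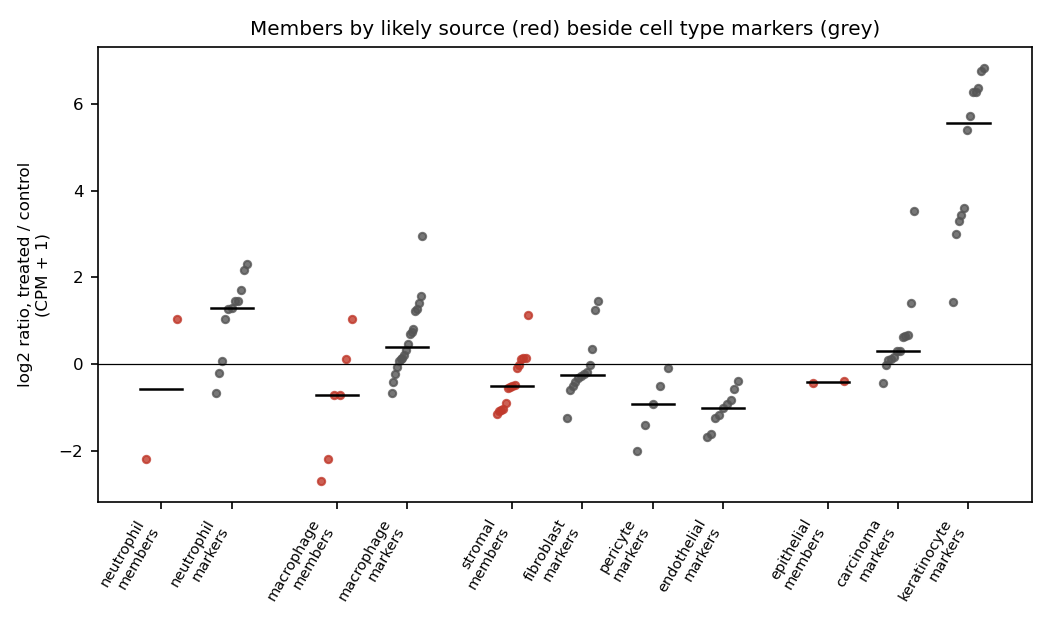
Log2 ratio of the treated over the control library (CPM with 1 added) for measured members grouped by likely source (red) and for measured markers of cell types (grey), with 1 point per gene and lines at the medians. The neutrophil and macrophage members have medians of -0.59 and -0.71 beside marker medians of 1.3 and 0.38, whereas stromal members, at -0.50, lie beside fibroblast, pericyte and endothelial medians of -0.24, -0.91 and -1.02.

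The 2 measured members assigned to epithelium, Mmp10 and Adam15, had log2 ratios of -0.44 and -0.39. Markers of carcinoma epithelium had a median of 0.31 over all 12, with a summed level of 5825 CPM in the treated library, against 5107 CPM in the control library. Keratinocyte markers were far higher in the treated library, 12 of 12 measured being past 2-fold. Krtdap, Krt5, Krt16, Krt6a, Krt1, Dsc3, Krt15 and Trp63 had at most 2.24 CPM in the control library. At such control levels a gene can reach the minimum mean only if it is past 2-fold, so their calls follow from the selection. Krt14, Sfn, Krt17 and Krt10 were above 10 CPM in both libraries, with ratios of 8.09, 2.72, 10.2 and 11.2. The skeletal muscle list summed to 1394 CPM against 927 CPM, nearly all of it from Pvalb, with 5134 against 1996 counts. The part that any of these cell types had in the values of the members was not tested.

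Partners and substrates of these proteases were taken from lists of 99 genes, of which 60 reached the minimum, with 3 past 2-fold on the higher and 6 on the lower side. Of all 8865 genes past the minimum, 4.23% were past 2-fold on the higher and 2.5% on the lower side. In the plasminogen system, which activates several MMPs, 1 of 8 was at least 2-fold higher. This was Serpinb2, an inhibitor of urokinase, which had 209 counts in the treated library, against 16 in the control library, 7.53-fold higher (4.53 to 13.4). Urokinase itself (Plau) had 353 against 161 counts, a ratio of 1.26 (1.05 to 1.53), and its receptor Plaur 494 against 187 counts, a ratio of 1.52 (1.28 to 1.81).

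Among activators and binding partners, all 9 measured genes were below 0 on the log2 scale and 3 were past 2-fold. Thbs1 and Thbs2, thrombospondins that bind MMPs and help clear them, had 602 against 819 and 420 against 583 counts, 2.36-fold (2.12 to 2.63) and 2.41-fold (2.12 to 2.74) lower. Tfpi2, a serine protease inhibitor of the matrix, was 2.09-fold lower (1.5 to 2.91). Cd44, which holds MMP9 at the cell surface, had a ratio of 0.868 (0.818 to 0.922), and Bsg, the MMP inducer basigin, had 0.770 (0.714 to 0.829). Of the 6 measured cofactors of ADAM10 and ADAM17 none was past 2-fold, and the iRhom gene Rhbdf1 had 98 against 32 counts, a ratio of 1.77 (1.17 to 2.72). Of 14 measured shed substrates, Areg and Il6ra were past 2-fold. Areg, the ligand amphiregulin, had 317 against 42 counts, 4.35-fold higher (3.15 to 6.16), and Il6ra 83 against 18, 2.66-fold higher (1.58 to 4.70). Tnf, under the minimum and so not among the 14, had 35 counts in the treated library, against 0 in the control library.

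Other metalloproteinases and procollagen partners had none of 6 past 2-fold, Bmp1 having a ratio of 0.996 (0.870 to 1.14) and Pcolce 0.787 (0.667 to 0.930). Of 3 measured ADAMTS-like genes and substrates, Fbn1 (fibrillin 1) and Adamtsl3 were past 2-fold, with 106 against 134 and 41 against 50 counts, and the third, Vcan (versican), had 33 against 32 counts, a ratio of 0.595 (0.354 to 0.999). Among 14 measured transcription factors that act on MMP promoters none was past 2-fold. The AP-1 genes Junb and Jun had ratios of 0.946 (0.887 to 1.01) and 0.784 (0.677 to 0.909), whereas Fos, Fosl1 and Jund had 2.02 (1.47 to 2.84), 1.88 (1.33 to 2.71) and 1.70 (1.39 to 2.08). Fos therefore lay under the 2-fold threshold only after the added CPM, at a log2 ratio of 0.99.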

How the data were processed

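Total RNA (1.5 µg per library) from 1 treated and 1 control tumour was sequenced. The authors deposited tables of counts by gene, handled here as estimated counts because 31 rows of autophagy genes are on another scale. Those rows were left out, and the remaining deposited counts were whole, so none was rounded. The build was mm10, per the submitters' processing notes. The aligner, counting tool, strand handling and use of molecular identifiers are not stated in them. Some results on genes outside the family, which the counts over lists include, are not reported here. A further 7 columns could not be tied to a sample and were not used.

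TMM scaling (trimmed mean of M values, trimming 30% by log ratio and 5% by abundance on both sides) gave factors of 1.01 for the treated and 0.989 for the control library. Ratio intervals are exact conditional binomial and share intervals Clopper-Pearson. Every member with a mean of at least 10 CPM was named. In the other lists, those past 2-fold or with most counts, and some further markers chosen after their values were seen, were named. Members, lists and the motif were chosen with earlier results of these data known. The scaling and the intervals were tested on simulated data. Python 3.11.15, SciPy 1.17.1 and the GENCODE M21 annotation were used.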

Additional observations from a re-analysis of the deposited data

How the results depend on the processing

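The direction of the members' median log2 ratio held under all settings tried, between -0.54 and -0.37. With plain totals and the median of ratios 2 members were higher and 7 lower, and 2 and 8 when mitochondrial, haemoglobin and ribosomal protein genes were taken out of the totals. With that last scaling the pericyte markers' median was -0.52. With a pseudocount of 5 the counts were 1 and 4, Adam8 (0.92), Adam12 (-0.93), Adam19 (-0.79) and Timp3 (-0.92) then lying under 2-fold, and the keratinocyte and skeletal muscle medians were 3.38 and 1.13. With a pseudocount of 0.5 the keratinocyte median was 6.5. With a minimum of 1 CPM 4 members were higher and 10 lower, and medians were -0.15 for proteoglycanases, -0.91 for the chromosome 9 genes, 0.61 for neutrophil members (Mmp25 then being the middle of 3), 1.01 for neutrophil, 4.90 for keratinocyte and 0.74 for muscle markers, with 10 partners higher. With no minimum 5 members were higher and 10 lower, with medians of -0.20 for proteoglycanases, 0.61 for neutrophil members, 0.73 for neutrophil, 4.90 for keratinocyte and 0.74 for muscle markers, and 10 partners higher. With a minimum of 50 CPM 0 members were higher and 2 lower (Mmp9 and Mmp13), inhibitors had -0.18, neutrophil members (Mmp9 alone) -2.20, neutrophil markers 0.68 and keratinocyte markers 6.29, and 1 partner was higher and 3 lower. At 1.5-fold, 11 partners were higher and 12 lower. The second sheet gave a keratinocyte median of 3.62, since it lists Dsc3 at 89 rather than 0 control counts and does not hold Krtdap. It holds every member but lacks Des and 7 of the 8 skeletal muscle markers, and gave no median for that list. The causes of the other changes were not tested. No paired analysis was possible because each group has 1 library. For a gene at 0 counts the one-sided limit of 3 counts is 0.776 CPM in the treated library, against 1.35 CPM in the control library.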
